A study of Mus musculus with 6 samples.

Results

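YBX1 peaks near the tag pileup ceiling are the places where the number of extended tags over the peak summit, the pileup, came closest to the highest value that the peak caller allows. They were chosen by pileup alone, as all peaks with a pileup of 240 or more in the authors' 3 peak lists, scaffolds included. That gave 1898 of 7053 peaks in list 1, 671 of 2628 in list 2 and 412 of 2827 in list 3, which are 26.9%, 25.5% and 14.6% of the lists. The 95% Wilson intervals of these shares were 25.9% to 28.0%, 23.9% to 27.2% and 13.3% to 15.9%, and they cover counting error only. They take peaks as independent, which many are not, since they share their values with others. Peaks that overlapped by at least 1 bp merged into 2042 regions, of 8156 regions over all peaks. In what follows, ceiling peaks are those of 240 or more, and other peaks are those below.

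The study measured chromatin binding of YBX1 by immunoprecipitation and sequencing in untreated BaF3 cells, a mouse line derived from pro-B cells, carrying the activated kinase JAK2 V617F. There were 3 immunoprecipitates with a YBX1 antibody and 3 inputs without antibody, all from the same kind of cells. Each immunoprecipitate was paired with the like-numbered input to give 1 list, with positions on GRCm38. Neither a control antibody nor cells lacking YBX1 appear in the labels, and these do not say whether replicates were separate cultures, so the spread between lists may be technical. Peak positions hold no expression values, so the identity of the cells could not be checked against marker genes.

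YBX1 is a Y-box protein whose cold shock domain binds DNA and RNA. It was first described as binding the Y-box, a CCAAT-containing element of promoters, and is also known as a packaging protein of mRNA and as a splicing factor. In ChIP-seq, true occupancy of a factor appears as more tags than in the input. Mouse chromosomes hold many families of interspersed repeats with near-identical copies on every chromosome, and a read from such a copy can fit several places in the assembly. Repeat annotation and genome sequence were not used here, and whether the ceiling peaks lie in repeats was not tested. None of the 32851 RefSeq promoter windows and none of the 1005 miRNA hairpins available for sequence overlapped a ceiling region, so no sequence is printed.

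The ceiling follows from the calling. The caller kept 1 tag per position and strand and extended each tag to 160 bp, so at most 320 tags can cover a base. The larger library of each pair was then scaled down. After scaling, the immunoprecipitate could reach 320 in lists 1 and 2 and 307.5 in list 3. The input could reach 244.8 in list 1, 310.3 in list 2 and 320 in list 3. Kept tags numbered 67.0 M, 68.3 M and 69.7 M in the immunoprecipitates and 87.6 M, 70.4 M and 67.0 M in the inputs. List 1 stands apart in that its input was the deepest and it held the most peaks, and its results are given separately throughout.

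**Figure D1:**
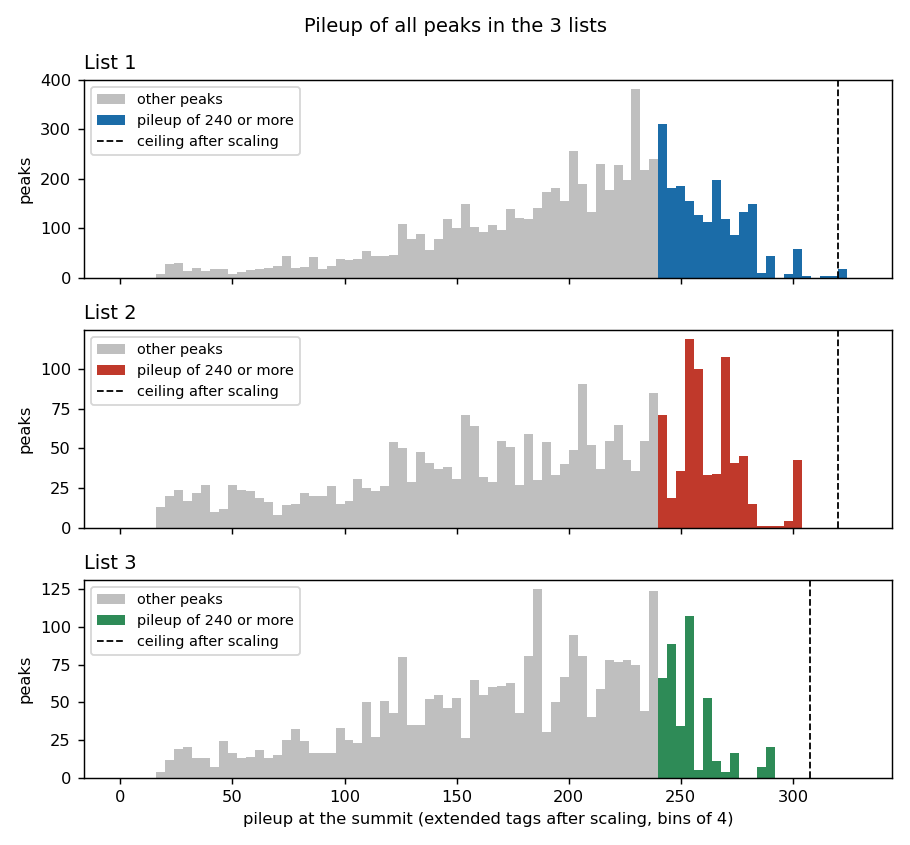
Number of peaks by pileup at the summit (extended tags after scaling, bins of 4) in each list, with ceiling peaks in colour, other peaks in grey and the ceiling of the immunoprecipitate as a dashed line. List 1 reaches its ceiling of 320, while lists 2 and 3 end at 302 and 289.25, and single pileup values stand out as spikes.

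Pileup ran from 240 to 320 with a median of 259 in list 1, from 240 to 302 with a median of 259 in list 2, and from 240.24 to 289.25 with a median of 252.74 in list 3. The other peaks had medians of 192, 159 and 172.02. These values chose the ceiling peaks and are a description. At the limit, 26, 5 and 25 peaks had the lowest accepted pileup of 240, 240 and 240.24, and 84, 38 and 90 peaks sat just below it at 239, 239 and 239.28. The limit applies after scaling, so it asks for more tags in list 3, where the immunoprecipitate was scaled by 0.961. Folds overlapped across the limit: the lowest accepted peaks had folds of 1.32 to 2.21 in list 1, 1.43 to 1.99 in list 2 and 1.33 to 1.75 in list 3. Those just below had 1.32 to 2.41, 1.37 to 2.45 and 1.36 to 2.15. The tails were thin. At a pileup of 300 or more there were 85 peaks in list 1, 43 in list 2 and 0 in list 3, whose highest value equals 301 tags before scaling. The median ceiling peak stood at 80.9%, 80.9% and 82.2% of its list's ceiling.

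High pileup went with high input. The local input level, recovered from the pileup and the fold, had a median of 151.5, 181.3 and 164.0 scaled tags under the ceiling peaks, against 100.2, 89.2 and 92.0 under the other peaks. Relative to the genome-wide input level, those medians were 37.5, 44.0 and 40.6 times, and no ceiling peak lay below 20.4 times. The fold, which is the authors' own ratio of pileup to local input with 1 added to each, had a median of 1.73, 1.44 and 1.57 in the ceiling peaks. The other peaks had medians of 1.81, 1.84 and 1.85. Over the 3 lists the mean of the medians was 1.58 ± 0.145 (SD, n = 3) for ceiling peaks and 1.83 ± 0.0192 (SD, n = 3) for other peaks. The highest folds of ceiling peaks were 2.92, 2.33 and 2.22, while other peaks reached 10.9, 9.57 and 8.20. A fold below 2 was found in 72.2%, 82.9% and 92.7% of the ceiling peaks. Pileup and fold share the same tags, so none of this is a test.

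**Figure D2:**
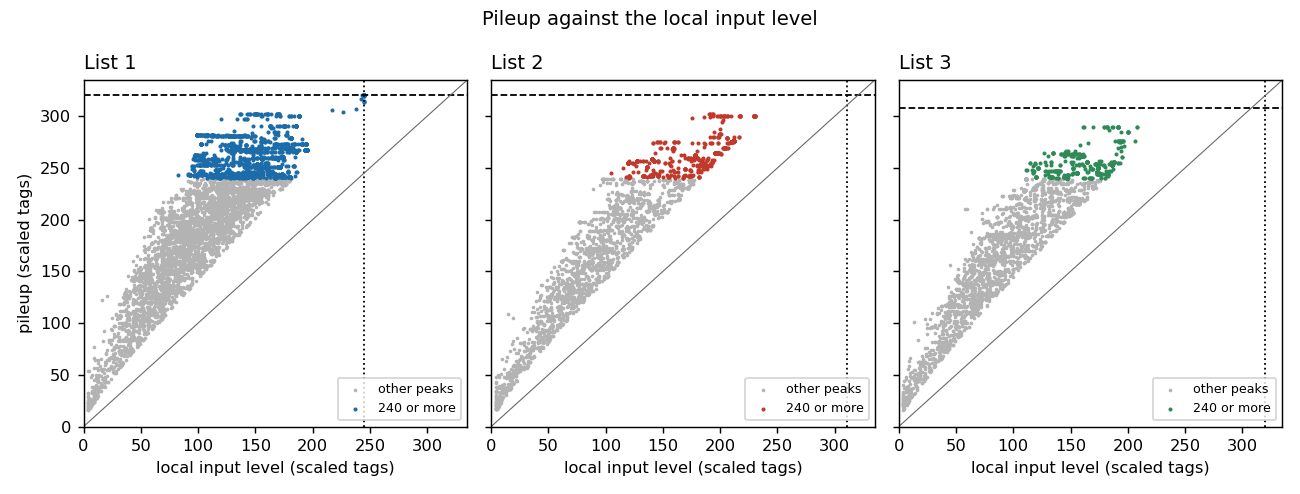
Pileup of each peak (vertical axis, scaled tags) against the local input level (horizontal axis, scaled tags) in the 3 lists, with ceiling peaks in colour, other peaks in grey, a line of equality, and the ceilings of immunoprecipitate (dashed) and input (dotted). Ceiling peaks lie at input levels of at least 82.6 scaled tags in list 1, and a small group in list 1 sits where both ceilings meet.

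A group in list 1 stood at both ceilings at once. In it, 17 peaks had a pileup of 320, and 15 of those had a fold of 1.306, which is the fold that results when immunoprecipitate and input are both at their ceilings. In 23 ceiling peaks of list 1, the tags before scaling did not exceed those of the input; lists 2 and 3 had 0 such peaks, and so did the other peaks of list 1. Of the 23, 12 lay on chromosome 9, 8 on the unplaced scaffold JH584304.1, 2 on chromosome 2 and 1 on chromosome 15. Their pileups were 307 to 320 and their folds 1.28 to 1.31. None was called in another list. In list 1 the input was scaled by 0.765, so its ceiling lay lowest. The corresponding fold with both at their ceilings would be 1.031 in list 2 and 0.961 in list 3.

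The longest run of ceiling regions held all 12 of the chromosome 9 peaks of this group and 2 more. On chr9:3000278-3035182, 14 regions lay within 10 kb of each other over 34.9 kb, with pileups of 306 to 320 and folds of 1.31 to 1.41, and 0 of the 14 were called in lists 2 or 3. The nearest protein-coding gene to the region at chr9:3012773-3012973 was Alkbh8, 322.4 kb away. On scaffold JH584304.1, 5 regions formed a run of 14.0 kb with pileups of 314 to 320, again in list 1 alone. The pair on chromosome 2 lay at chr2:98662405-98662805 and chr2:98666468-98667196, both with a pileup of 320 and a fold of 1.306. These stretches of chromosomes 2 and 9 are known as places of the mouse assembly that collect excess reads in many sequencing experiments. Across all scaffolds there were 15 ceiling regions, of which 8 were on JH584304.1, 2 each on GL456350.1 and JH584299.1, and 1 each on GL456211.1, JH584293.1 and JH584298.1.

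Many ceiling peaks had exactly the same values as others in their list. In list 1, 1898 ceiling peaks had 58 different pileups and 679 different pairs of pileup and fold. List 2 had 217 pairs among 671 peaks and list 3 had 168 among 412. A ceiling peak with the same pileup and fold as at least 1 other made up 78.1%, 78.2% and 74.8% of the lists, against 56.8%, 44.1% and 48.5% of the other peaks. Peaks that shared length and summit offset as well, called identical copies here, made up 33.5%, 52.5% and 34.5%, against 18.02%, 13.3% and 15.7%. The narrower range of pileups among ceiling peaks makes equal values more likely, and the difference is given as a description. Only 3 ceiling peaks, all in list 1, were mirror images of another in length and offset.

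The largest sets were spread over most chromosomes. In list 2, 88 peaks on 20 chromosomes all had a pileup of 269 and a fold of 1.31, and 70 of them were 161 bp long with the summit 141 bp from the start. In list 1, 67 peaks on 19 chromosomes had a pileup of 276 and a fold of 1.76, and 36 of them were 443 bp long. A further 62 peaks on 20 chromosomes had a pileup of 258 and a fold of 2.43, of which 44 were 366 bp long. List 3 held 40 peaks on 18 chromosomes with a pileup of 252.74 and a fold of 1.36. Sets of 10 or more held 763, 311 and 87 ceiling peaks.

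Whether a ceiling peak of one list was found in another was compared next. The rule did not use calls in other lists, but a call itself depends on pileup over local input. The comparison is therefore not fully independent of the choice. Of the ceiling peaks, 40.6%, 99.4% and 98.3% overlapped a peak of another list, where 42.2%, 80.6% and 81.6% of all peaks of lists 1, 2 and 3 did. Not found elsewhere were 1127, 4 and 7 ceiling peaks. The other peaks were found elsewhere in 42.8%, 74.1% and 78.8% of cases. Ceiling peaks were therefore found more often in lists 2 and 3 and slightly less often in list 1, and the mean difference of 14.2 ± 14.5 percentage points (SD, n = 3) did not differ beyond the spread (exact sign-flip permutation test over the lists, two-sided, p = 0.5, higher in 2 of 3 lists). With 3 lists this exact permutation test cannot go below p = 0.25, so no comparison tested over the lists here could reach 0.05. The shares found elsewhere use each pair of lists in both directions, so these 3 differences are not independent either. Counting 1 peak for each set of equal pileup and fold gave 33.6%, 98.2% and 98.2%, against 46.1%, 75% and 76.6% of other peaks. Without the 23 list 1 peaks at or below the input, the list 1 share was 41.1%.

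The shares differed with the direction of the comparison. Of list 2 ceiling peaks 667 (99.4%) were found in list 1, against 70.3% of other peaks. Of list 3 ceiling peaks 405 (98.3%) were, against 75.7%. In the other direction, 598 list 1 ceiling peaks (31.5%, Wilson 29.5% to 33.6%) were found in list 2, against 28.0% of other peaks. This interval takes peaks as independent, although many share their values with others, so it is too narrow. In list 3, 474 list 1 ceiling peaks (25.0%) were found, fewer than the 34.0% of other peaks. Between lists 2 and 3, 358 list 2 ceiling peaks (53.4%) were found in list 3, against 51.5% of other peaks. For list 3 ceiling peaks, 239 (58.0%) were found in list 2, against 46.6%. As regions, 1127 of the 2042 were called in list 1 alone, 4 in list 2 alone and 7 in list 3 alone. Lists 1 and 2 shared 321, lists 1 and 3 shared 198, lists 2 and 3 shared 0 that list 1 lacked, and 385 were called in all 3. A pileup of 240 or more in all 3 lists was reached by 180 regions. The matching counts over all 8156 regions are not given here. Among single peaks of list 1, 40.6% of ceiling peaks and 42.2% of all peaks overlapped a peak of another list. A call in list 1 alone was therefore not particular to ceiling regions. Among list 1 ceiling peaks, the median fold was 1.67 in those found elsewhere and 1.76 in the rest.

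**Figure D3:**
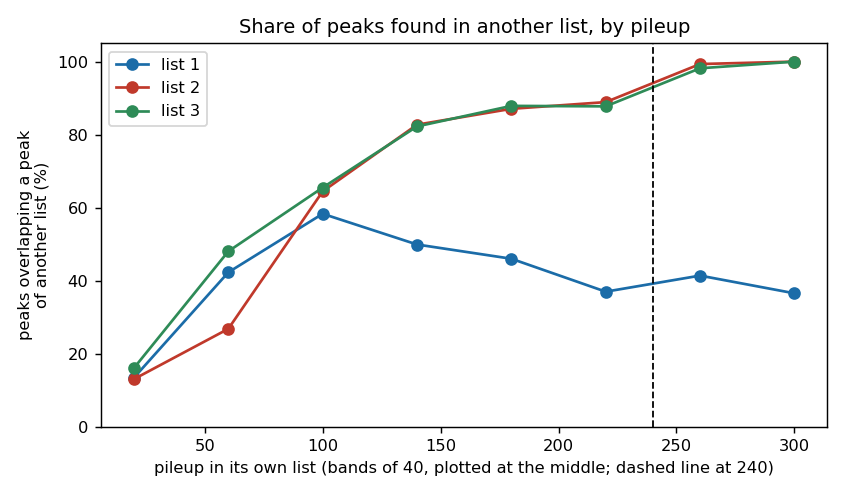
Share of peaks overlapping a peak of another list (vertical axis, percent) by pileup in their own list (horizontal axis, bands of 40 plotted at their middle), 1 line per list, with a dashed line at 240. Lists 2 and 3 climb from 13.0% and 16.0% in the lowest band to 100% at 280 or more, while list 1 peaks at 58.3% between 80 and 120 and stands at 36.5% at 280 or more.

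In lists 2 and 3 the share found elsewhere was highest at the highest pileups, and in list 1 it was not. Between 200 and 240, just under the limit, it was 88.9% in list 2 and 87.7% in list 3, and between 240 and 280 it was 99.3% and 98.2%. In list 1 the same bands gave 37.0% and 41.4%. Peaks of a list share its input and depth, and the bands were not tested.

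Where a ceiling peak was found in another list, the pileup there was high too. Only called regions enter this comparison, and a call over a higher local input needs a higher pileup. Ceiling peaks had median local inputs of 151.5, 181.3 and 164.0 scaled tags and lowest folds of 1.28, 1.29 and 1.32. Other peaks had median local inputs of 100.2, 89.2 and 92.0. Part of the difference in pileup is therefore set by the calling, and how much was not tested. Averaged over the 3 lists, the median pileup in the other lists was 256 ± 4.98 (SD, n = 3) for regions of ceiling peaks and 182 ± 2.20 (SD, n = 3) for regions of other peaks. The difference was 74.2 ± 2.86 tags, with values of 73.6, 71.6 and 77.3 for lists 1, 2 and 3 (higher in 3 of 3, exact sign-flip permutation test, two-sided, p = 0.25, the smallest it can give). Pileup also chose the ceiling peaks in each of the lists compared, so this difference describes the measure behind the choice and its p lends no support. Each pair of lists enters these values in both directions, so they are not independent. Their SD and the test do not measure a spread between independent replicates. Of list 1 ceiling peaks found in list 2, 93.5% again had 240 or more, and of those found in list 3, 68.8% did. Summits fell within 1 bp of each other in 43.5% of list 1 ceiling peaks found in list 2 and in 56.3% of those found in list 3, against 37.4% and 40.5% of other peaks. For list 2 ceiling peaks the shares were 43.8% in list 1 and 51.1% in list 3, against 36.8% and 34.1%. For list 3 they were 52.6% in list 1 and 38.1% in list 2, against 41.8% and 38.7%, so the last direction was reversed. From list 1 to list 2 the median summit gap was 5 bp for ceiling peaks and 3 bp for other peaks.

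**Figure D4:**
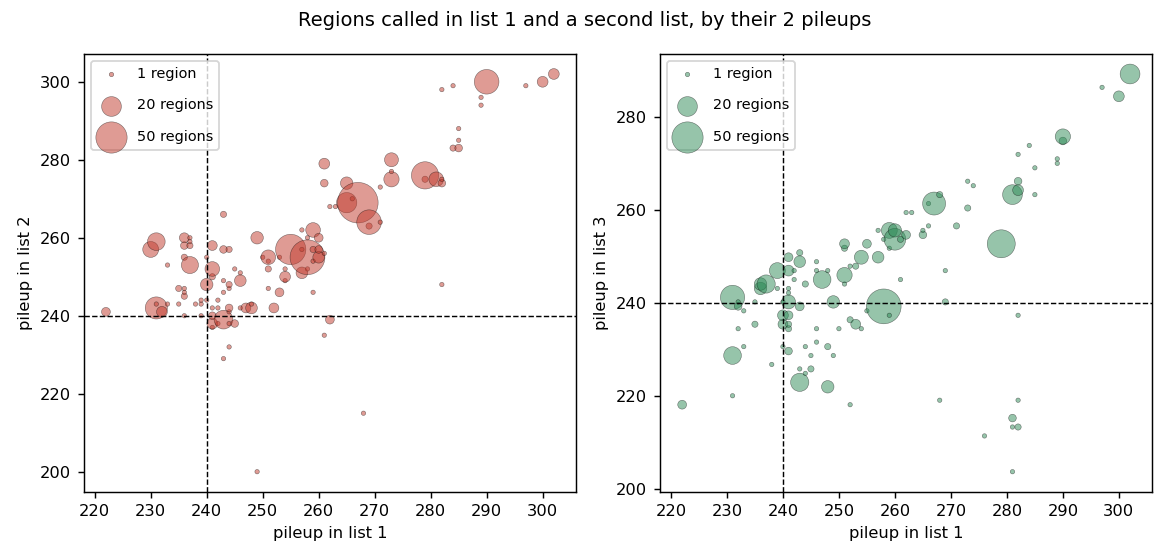
Pileup in list 1 (horizontal axis) against pileup in list 2 (left panel) or list 3 (right panel) for ceiling regions called in both, with point area giving the number of regions at that pair of values and dashed lines at 240. The regions collect on a few pairs of values, among them the 62 regions at 258 in list 1 and 255 in list 2, which lie just below the limit in list 3 at 239.28.

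Equal values in one list were matched by equal values in the others. The 385 regions called in all 3 lists had 94 different combinations of 3 pileups, and 20 combinations seen at least 5 times held 275 of them. The commonest was 258, 255 and 239.28 in lists 1, 2 and 3, found at 62 regions on 20 chromosomes with median folds of 2.43, 2.13 and 2.15. It straddles the limit, so these regions are ceiling peaks in lists 1 and 2 but not in list 3. Next came 279, 276 and 252.74 at 38 regions on 18 chromosomes, all with folds of 1.54, 1.30 and 1.36. A combination of 231, 242 and 241.21 occurred at 25 regions.

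Sets were often found in another list as a whole or not at all. Of 75 list 1 sets with at least 5 peaks, 12 were found in list 2 in full, 33 not at all and 30 in part, and 11, 40 and 24 in list 3. All 25 such sets of list 2 were found in list 1 in full, where 99.4% of all list 2 ceiling peaks were found. In list 3, 13 of these 25 were found in full, 7 not at all and 5 in part. Of 22 list 3 sets, 20, 0 and 2 were so found in list 1, and 10, 4 and 8 in list 2. The matching counts for sets of other peaks are not given here, so this is not shown to be particular to ceiling peaks. The list 1 set at 276 had 0 of 67 peaks found in list 2 and 0 in list 3. By contrast, the set at 258 had 61 of 62 found in each. The list 2 set at 269 was found in list 1 for all 88 peaks and in list 3 for 0.

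Neighbouring ceiling peaks repeated the same distances. Within 8000 bp of the next ceiling peak, summit to summit, there were 418 neighbour pairs in list 1, 84 in list 2 and 23 in list 3. They had 221, 39 and 17 different spacings, and spacings seen at least 5 times covered 31.3%, 47.6% and 21.7% of the pairs. In list 1 a peak of pileup 276 was followed 828 bp further by one of 251 in 32 places, and a peak of 251 was followed at 593 bp by one of 258 in 28. In list 2 a peak of 269 was followed at 1497 bp by one of 255 in 21 places, and one of 257 at 1189 bp by one of 276 in 14. The reverse order of these pileups was seen 0 times, read along increasing coordinate. Spacings among other peaks are not given here, so repeated distances are not shown to be particular to ceiling peaks.

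**Figure D5:**
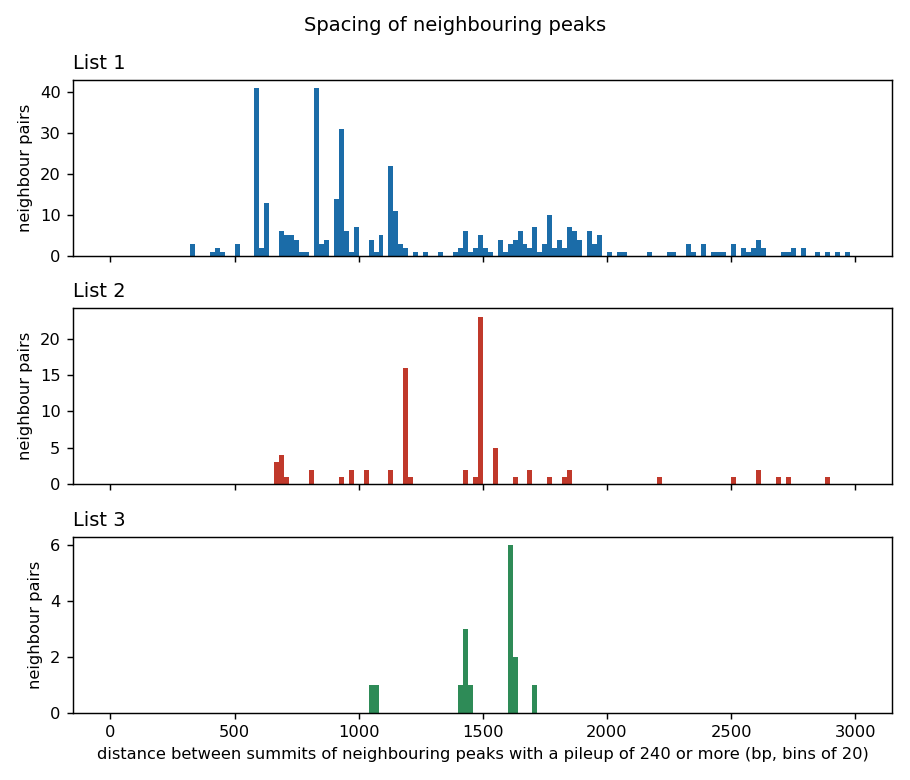
Number of neighbour pairs of ceiling peaks (vertical axis) by the distance between their summits (horizontal axis, bp, bins of 20) in the 3 lists. A few distances stand out, among them 593 and 828 bp in list 1 and 1189 and 1497 bp in list 2.

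Some neighbours formed ladders of 3 peaks. In list 1 the order 267, 251, 258 occurred 21 times on 16 chromosomes with a median span of 1531 bp between the outer summits. In list 2 both outer peaks were called at 19 of the 21 and the middle one at 3. In list 3 the right peak was called at 21 and the left and middle ones at 0. A second ladder of 267, 246, 258 occurred 7 times on 6 chromosomes with the same median span.

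A single locus shows the pattern. On chr12:64149336-64152254, 4 ceiling regions lay in 2.92 kb outside genes. The first had pileups of 260, 255 and 253.7 in lists 1, 2 and 3, with the summit at the same base in each. The next had 267 and 269 in lists 1 and 2, the next 246 in list 1 alone, and the last 258, 255 and 239.28 with folds of 2.43, 2.13 and 2.15. Inside Prnp, the gene of the prion protein, chr2:131923910-131925874 held the same last 3 steps. There the pileups were 267 and 269 with folds of 1.37 and 1.31, then 246 in list 1 alone, then 258, 255 and 239.28 with folds of 2.43, 2.13 and 2.15. The first and last of these steps had equal values in every list at both places, on different chromosomes. The middle one had equal pileups and list 1 folds of 1.62 and 1.57.

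Within 10 kb, ceiling peaks had a neighbour more often than other peaks in each list. Another peak of the same list lay within 10 kb of 71.8%, 37.0% and 38.6% of ceiling peaks, and of 57.9%, 26.2% and 30.0% of other peaks. The difference was 11.1 ± 2.64 percentage points (SD, n = 3, higher in 3 of 3, exact sign-flip permutation test, two-sided, p = 0.25). Without peaks that have an identical copy it was 3.85 percentage points (same test over 3 lists, exact permutation p = 0.75). Within 1 kb the direction differed between lists, with 44.5%, 14.5% and 9.22% of ceiling peaks against 30.6%, 9.61% and 11.8% of other peaks. Of the runs formed by regions within 10 kb of each other, 1201 were single regions, 289 held 2, 72 held 3, 7 held 4, 1 held 5 and 1 held 14.

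Position relative to genes was the next comparison. Inside protein-coding genes lay 24.1%, 23.4% and 24.5% of ceiling peaks and 23.3%, 25.2% and 24.9% of other peaks, a difference of -0.474 ± 1.30 percentage points (SD, n = 3, exact sign-flip permutation test, two-sided, p = 0.75). Within 5 kb of a gene end lay 4.78%, 4.18% and 6.37%, against 4.83%, 5.76% and 4.90%, a difference of -0.0543 ± 1.52 percentage points (exact sign-flip permutation test over 3 lists, p = 0.75). Neither of these differences exceeded the spread between lists. Without peaks that have an identical copy, the difference inside genes was -2.11 percentage points (exact sign-flip permutation test over 3 lists, p = 0.25). Within 1 kb of a gene end there were 9, 3 and 3 ceiling peaks. Either end of a gene counts here, so this is not a count at promoters. These were 0.478%, 0.448% and 0.735%, against 0.916%, 1.03% and 1.21% of other peaks, lower in 3 of 3 lists. The mean difference was -0.496 percentage points (exact sign-flip permutation test, two-sided, p = 0.25, the smallest it can give). As merged regions, 486 (24.0%) lay inside 365 protein-coding genes, 39 lay in annotated pseudogenes, and the median distance to a gene end was 60.0 kb. The gene table has 1 span per gene without strand or exons, so exons and introns were not analysed here.

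The 6 regions at the highest shared level had pileups of 302, 302 and 289.25 in lists 1, 2 and 3. They lay on 6 chromosomes and, since lists 2 and 3 ended at these values, none was higher in those lists. The one inside a gene was chr14:10184608-10184938 in Fhit, a large gene that spans a common fragile site, with folds of 1.77, 1.56 and 1.59. On chr15:4857937-4858257, 40.1 kb from Mroh2b, the folds were 1.78, 1.58 and 1.61, and chr16:71791414-71791735, 235.9 kb from Robo1, had exactly those folds. Likewise chr1:146402888-146403265, 92.6 kb from Brinp3, and chr7:59209474-59209844, 19.1 kb from Ube3a, both had folds of 1.88, 1.55 and 1.39. In all 6 regions the 3 lists placed the summit at the same base. The sixth was chr12:31363789-31364178, 12.5 kb from Dld, a subunit of mitochondrial dehydrogenase complexes, with folds of 1.87, 1.59 and 1.55. In list 3, 20 peaks shared the highest pileup of 289.25, and the one with the highest fold, 1.79, was chr10:83676603-83676916, 27.9 kb from Appl2. Just below the 6 regions came chr8:6986429-6986762 with 297, 299 and 286.37, followed by 3 regions with 300, 300 and 284.45, of which one lay in Ube2e2 on chr14:18865353-18865695.

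Other genes held high ceiling regions that were mostly called in fewer lists. In Zswim6, chr13:107858570-107859927 was the widest region, with a pileup of 304 and a fold of 1.34 in list 1 alone. In Kcns3, a potassium channel gene, chr12:11109371-11109697 had 302 in list 1 and 289.25 in list 3, without a call in list 2. Sh3rf1 and Ctps2 each had a region of 302 in list 1 alone, the latter with a fold of 2.11. Dip2c had one of 300 in list 1 alone. Fam135b had 290 and 300 in lists 1 and 2. Fbxl17 had 290, 300 and 274.84 and was called in all 3.

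The 5 ceiling regions with the highest fold were all called in list 1 alone, as were 1127 (55.2%) of all 2042 ceiling regions. The highest was 2.92 on chr2:83430409-83430580 with a pileup of 243, 214.1 kb from Zc3h15. The next 4 all had a pileup of 282 and a fold of 2.84, on chromosomes 10, 14 and 15, at 136.2 kb from Frk, 31.7 kb from Gm3159, 9.51 kb from Chat and 4.02 kb from Chrac1. Chat encodes the enzyme that makes the neurotransmitter acetylcholine.

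Within 1 kb of a gene end there were 10 merged regions. Ipp had one at 0.287 kb with pileups of 255 and 257 in lists 1 and 2 and folds of 2.35 and 2.02, values shared with the other members of those sets. Gm11127 had one of 271, 273 and 256.58 that lay inside Gm6034. Pnpt1, a mitochondrial RNA-processing enzyme, had 246 at 0.625 kb and Il1f9, a cytokine of the interleukin 1 family, had 266 at 0.690 kb, both in list 1 alone. Gm12790 had 251 and 246.01 in lists 1 and 3. The other 5 lay on chromosome X beside Gm52432, Gm52433, Gm52446, Gm52437 and Gm52448.

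The most ceiling regions inside 1 gene numbered 5, in Pkd2l1, an ion channel gene, and in the overlapping Gm37013, Gm38666 and Gm38667. In Pkd2l1, the first pair had pileups of 276 and 251 in list 1 alone, with summits 828 bp apart. The last pair had 255 and 257 in lists 1 and 2, then 279, 276 and 252.74 in all 3, with the folds of the commonest sets. Dip2c, Nav3 and Prnp held 4 each, and the span of Prn overlaps that of Prnp.

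None of the genes of the pathways named by the study's title had a ceiling region in the span or within 1 kb. The counts were 0 of the 41 JAK-STAT components matched among 42 names, 0 of 50 MAPK, ERK and MNK components, 0 of 53 splicing factors and 0 of 29 reported Y-box targets. They were also 0 of 82 cytosolic ribosomal protein genes, 0 of 103 histone genes and 0 of 22 Mup genes. Over all protein-coding genes the count was 372 of 21792, or 1.71%, and the gene lists were not tested against it. With a share this low, a count of 0 in lists of 22 to 103 genes does not set these genes apart. Gene length was not taken into account. Olfactory receptors had 1 of 1105, Olfr1055 with a pileup of 302 in list 1. Zfp genes had 4 of 367, namely Zfp277, Zfp442, Zfp469 and Zfp978. Vomeronasal receptors, which detect pheromones, had 4 of 350, namely Vmn2r27, Vmn2r35, Vmn2r38 and Vmn2r60. Vmn2r35 held 3 regions, each with 231, 242 and 241.21 in lists 1, 2 and 3 and folds of 1.81, 1.66 and 1.67, and their list 3 summits stood 4585 bp apart.

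Distances from single genes of the study's question to the nearest ceiling region were measured next. The nearest lay 355.2 kb from Ybx1, the immunoprecipitated protein's own gene, with a pileup of 297 in list 1 alone. It lay 664.3 kb from Mknk1, the kinase that phosphorylates the translation factor eIF4E. Jak2 had none within 1499.7 kb. Stat5b stood at 116.7 kb and Stat5a at 195.4 kb from the same region, which had 266 in list 1. Ybx3, another Y-box gene, stood at 160.7 kb from a region with 231, 242 and 241.21. Bcl2l1, Mapk3, Myc, Eif4e and Mknk2 stood 494.1 to 1293.7 kb away.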

How the data were processed

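Libraries were 3 YBX1 immunoprecipitates and 3 inputs, and the files used were 3 peak tables. The submitters' processing notes name Trim Galore, MACS2 and the build GRCm38. The aligner, and how it treated reads with several possible places, were not given in the sources used here. Per the file headers, MACS 2.1.1.20160309 called each replicate against the input of its number without a shifting model, with an extension of 160 bp, a q threshold of 0.01 and a limit of 1 tag for each position and strand, and it scaled the larger library to the smaller.

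The pileup is a signal of extended tags at the summit after scaling, per the file headers. The deposited fold is a ratio with 1 added to pileup and local input, and the −log10 q values were used as the authors deposited them, beside −log10 p. All values belong to called peaks, so regions not called have none.

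Local input was solved from pileup and fold, and divided by the scaling it gave whole tags, within 0.02, in 99.7% of list 1 ceiling peaks. Gene spans were those RefSeq gives for GRCm38.p6, with 21792 protein-coding genes used and 357 entries left out whose positions seem to be those of scaffolds or patches. Positions and distances are those of midpoints, except that gene lists counted any overlap of a region with the gene or 1 kb around it. The peaks and gene lists were chosen with earlier results of these data known. Named regions followed a rule: the 5 highest pileups per list, the 10 highest shared regions, the 10 highest in or within 1 kb of genes, peaks beside the limit (given by range), the 3 longest runs, scaffolds, the 5 highest folds and 12 genes; Pkd2l1, Prnp and regions at gene ends were added after their values were seen. Values of some single genes are not reported here. Lists were compared by exact permutation tests over lists in Python 3.11.15, numpy 2.4.6, pandas 2.3.3 and scipy 1.17.1. Overlaps, distances and merging were checked on simulated peaks, and the permutation tests on short fixed sets of values. GC content, CCAAT and repeats were not analysed here, since no genome was used. Alternatives were other limits, overlaps, distances and list subsets. Counting 1 peak per set, and leaving out the list 1 peaks at or below the input, were alternatives chosen after seeing the data.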

Additional observations from a re-analysis of the deposited data

How the results depend on the processing

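The number of merged ceiling regions, 2042, was 3340 with a limit of 220 and 969 with a limit of 260, and 849 to 2010 when 1 list was left out, with the lowest without replicate 1. Averaged over the lists, the difference in the share found in another list stayed positive under all 13 alternatives, although list 1 ran the other way (-2.13 percentage points). It was 6.62 without replicate 1, 6.82 without replicate 2 and 16.3 without replicate 3, and 8.02 without identical copies. The pileup in another list, a measure that also chose the ceiling peaks, stayed higher in all 9, from 68.7 to 80.7 tags. The mean difference in neighbouring peaks stayed positive in all 10, up to 12.3 percentage points. It fell from 11.1 to 3.85 without identical copies, to 6.43 with a limit of 260 and to 5.40 within 1 kb, where list 3 was reversed (-2.62). The difference inside genes ran from -1.10 to 0.195 when 1 list was left out, and was -1.43 for peaks with −log10 q of at least 5 and -2.11 without identical copies. That at gene ends ran from -0.816 to 0.708, and was 0.0670 and 0.234 under those same 2 settings, -1.20 with a limit of 260 and -0.496 within 1 kb; the cause was not tested. With no replicate block, the difference of 14.2 percentage points in the share found elsewhere gave p = 0.6 by an exact permutation of 3 against 3, which cannot go below 0.10. That setting is counted among the 13, 9 and 10 alternatives, but it changes only the test and leaves the difference as it was. The lists hold tags already reduced to 1 per position, so differences above the ceiling are not detectable, and the alternatives on GC content were not run.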
